A study of Homo sapiens with 10 samples.

Results

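The regions described here are those of the nuclear receptor genes in a genome-wide table of H3K27ac, the acetylation of lysine 27 on histone H3 that marks active promoters and enhancers. They were chosen by gene symbol alone, as every row of the annotated count table whose assigned gene was 1 of 46 named receptors (NR, RAR, RXR, PPAR, THR, ESR, ESRR, ROR, HNF4, VDR and PGR symbols). This gave 222 of the 67387 annotated regions, and they belonged to 32 receptors. No region was assigned to the other 14 (RXRB, RXRG, NR1H4, NR1I2, NR1I3, RORB, PGR, NR3C2, ESRRG, NR2E1, HNF4A, HNF4G, NR5A2 and NR0B2). Each region was 502 bp long, so levels of different regions compare at equal length.

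The assay was ChIP-seq, sequencing of the DNA that an antibody to the mark pulls down from sheared chromatin. The cells were H1975, a human lung adenocarcinoma line that carries mutant EGFR. The osimertinib DTP group was kept in 500 nM osimertinib, an EGFR kinase inhibitor, for 24 days. The osimertinib DTP + AZD5153 group, called the combination below, had 500 nM osimertinib for 21 days and then 150 nM AZD5153, a bivalent bromodomain inhibitor, for 3 days; the labels do not say whether osimertinib was continued over those 3 days. The DMSO group had 21 days without drug and 3 days with vehicle. Each group had 3 libraries, stated to be biological triplicates, and 1 pooled input library was not immunoprecipitated. The labels give the same single line for all groups and no batch. The deposited peak list of osimertinib DTP replicate 3 carries the name H1875 where its labels say H1975, which was not resolved.

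Nuclear receptors are transcription factors, most of which are switched by small lipophilic ligands such as retinoic acid, thyroid hormone, vitamin D, steroids, fatty acids and oxysterols. Many bind DNA as heterodimers with a retinoid X receptor (RXR). Without ligand, the retinoic acid and thyroid hormone receptors recruit corepressor complexes that remove histone acetylation. With ligand they recruit coactivators that add it. Steroid receptors and receptors without a known ligand need not follow this switch. In lung epithelium, retinoic acid, glucocorticoid and PPARγ signalling are known for roles in development and differentiation. Retinoic acid receptor β (RARB) is itself a classical retinoic acid target, through a repeated element beside its start.

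In osimertinib DTP against DMSO, RARB had the most regions that tested higher (6) and RARG the most that tested lower (4). The 250 bases upstream of their RefSeq starts are shown for reference (GRCh38.p14, 5′ to 3′ on the strand of the gene). Capitals mark a direct repeat of receptor hexamers spaced by 5 bases (DR5), searched on both strands. The consensus hexamer AGGTCA, the variant AGTTCA, the variant GGGTCA and the variant GGTTCA were each allowed on either side of the 5 bases. The inner RARB start lies at position 25428263 of chromosome 3 (plus strand, window chr3:25428013-25428262), the outer RARB start at position 24829321 (plus strand, window chr3:24829071-24829320), and the RARG start at position 53232209 of chromosome 12 (minus strand, window chr12:53232210-53232459).
RARB, inner start: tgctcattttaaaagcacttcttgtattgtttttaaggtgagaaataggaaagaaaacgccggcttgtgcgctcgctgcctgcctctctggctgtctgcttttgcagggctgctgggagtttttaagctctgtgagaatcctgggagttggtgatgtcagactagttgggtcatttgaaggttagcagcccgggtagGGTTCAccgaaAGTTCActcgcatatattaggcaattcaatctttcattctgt
RARB, outer start: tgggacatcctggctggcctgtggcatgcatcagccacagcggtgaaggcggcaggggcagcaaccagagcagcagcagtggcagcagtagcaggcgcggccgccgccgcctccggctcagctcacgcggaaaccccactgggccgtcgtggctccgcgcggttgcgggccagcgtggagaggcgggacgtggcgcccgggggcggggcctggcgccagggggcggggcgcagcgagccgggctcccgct
RARG: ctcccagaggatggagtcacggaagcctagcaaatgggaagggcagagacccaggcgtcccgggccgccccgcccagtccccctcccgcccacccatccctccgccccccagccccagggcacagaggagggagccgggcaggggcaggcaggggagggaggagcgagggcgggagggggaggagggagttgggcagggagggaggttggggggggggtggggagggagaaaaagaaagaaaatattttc
The DR5 in the inner RARB window begins 53 bases before the start, and the nearest RARB region of the table, chr3:25428499-25429000, lies 237 bp from the window. The other windows shown hold no DR5. Among all RefSeq promoter windows 26 of 35116 (0.074%) hold a DR5, and among those of the receptors, 41 of which were matched, 1 of 96 (1.04%) does, the RARB window above. The receptor share rests on that 1 window, whose hexamers GGTTCA and AGTTCA are among the variants allowed, so it is not read as enrichment. A single hexamer of these 4 is common, in 33.8% of all windows and 38.5% of the receptor windows. These matches describe letters and not binding. The RARG window overlaps the RARG region that starts at 53231716.

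Totals over all regions ran from 6263443 to 10463351 reads per library, and 0.223% to 0.312% of these fell in receptor regions. The input held a median of 12 reads in the receptor regions (highest 47), against 10 over all regions. Levels are given below in CPM, the reads of a region per library total after TMM, a scaling to the bulk of regions, so they are relative levels and not absolute amounts. Replicate 3 of the combination stood apart. Its total was the lowest, its Spearman correlation with the other libraries of its group was 0.354 to 0.430 where all other pairs within groups had 0.818 to 0.898, and promoters took 62.8% of its receptor reads where the other 2 had 41.05% and 41.6%. Replicate 2 of osimertinib DTP also leaned to promoters, at 59.6% against 43.3% and 44.4% in its group and 46.7% to 47.6% in DMSO. Results are therefore also given without combination replicate 3. The 2 comparisons with DMSO share the same DMSO libraries, so their values stand side by side here and are not independent. Of 8 markers of the labelled cell type, the KRT8, KRT7 and EPCAM promoters lay at percentiles 99.6, 99.1 and 90.2 of genes with a promoter region. The lung markers NKX2-1, NAPSA and SFTPB were lower, at 61.3, 45.5 and 4.4, as were CDH1 at 44.1 and KRT18 at 29.5.

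The 222 regions comprised 82 promoter regions (within 1 kb of an annotated start), 26 flanking regions (1 to 3 kb) and 114 distal regions. RXRA had the most, with 24, followed by PPARD (18), PPARG and RARA (15 each), RARG and THRB (14 each), NR3C1 and NR6A1 (13 each), NR2E3 (11), NR4A2 (9), NR2F6 and PPARA (8 each), RARB (7), NR1D2 and THRA (6 each), and NR0B1 (5). NR1H2 had 4. ESR1, ESR2, NR1D1, NR1H3, NR2F1, NR2F2, RORA and VDR had 3 each, ESRRA had 2, and ESRRB, NR2C1, NR2C2, NR4A1, NR4A3 and NR5A1 had 1 each. A promoter region was present for 26 receptors and absent for ESR1, ESRRB, NR0B1, NR5A1, RORA and THRB. All 14 THRB regions were distal, and none of the 6 THRA regions was. By RefSeq bounds 158 regions lay inside the gene they were assigned to and 64 outside it, 20 of these inside another gene. None of the 11 NR2E3 and 5 NR0B1 regions lay inside its gene, only 1 of 9 NR4A2 regions did, and the single NR5A1 region lay within NR6A1, so these names rest on the nearest start and not on the gene body. The same holds for 5 of the 7 RARB regions, which lay outside that gene. All 222 regions passed the filter on low counts.

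A peak in the deposited list of a library overlapped 97 of the 222 regions in all 9 libraries. This held for 56 of 82 promoter regions and 25 of 114 distal regions. No peak in any of the 3 libraries of a group overlapped 23 regions in DMSO, 12 in osimertinib DTP and 13 in the combination, and 158, 170 and 136 regions had a peak in all 3. The osimertinib DTP counts use the list that carries the other line name.

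Promoter H3K27ac separated the receptors widely. The strongest promoter region belonged to NR3C1, the glucocorticoid receptor, at chr5:143404842-143405343, with 35.01, 46.8 and 35.3 CPM in DMSO, 33.4, 90.9 and 36.9 CPM in osimertinib DTP and 55.8, 56.2 and 104 CPM in the combination. Its mean of 54.9 CPM was at percentile 98.0 of 12295 genes with a promoter region. RARG, retinoic acid receptor γ, followed at chr12:53221251-53221752 with 33.2, 56.3 and 42.5 CPM in DMSO, 28.7, 84.3 and 38.7 CPM in osimertinib DTP and 34.2, 40.4 and 69.2 CPM in the combination (percentile 95.7). The groups overlapped in both genes. RXRA, the common heterodimer partner, had 30.1, 36.8 and 27.7 CPM in DMSO, 27.4, 82.4 and 20.04 CPM in osimertinib DTP and 28.6, 25.8 and 90.8 CPM in the combination at chr9:134325556-134326057 (percentile 91.9). PPARG, the adipogenic receptor, had 27.1, 29.2 and 21.3 CPM in DMSO, 14.5, 64.02 and 11.2 CPM in osimertinib DTP and 23.2, 21.5 and 111 CPM in the combination (percentile 86.8). In these promoters osimertinib DTP replicate 2 and combination replicate 3 were the highest libraries of their groups.

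Next came RARA, retinoic acid receptor α, with 21.6, 34.9 and 29.7 CPM in DMSO, 20.3, 47.9 and 23.3 CPM in osimertinib DTP and 17.5, 41.5 and 38.8 CPM in the combination (percentile 79.6). NR4A2, an orphan receptor of the immediate-early NR4A family, had 21.5, 31.4 and 19.8 CPM in DMSO, 17.5, 57.8 and 15.6 CPM in osimertinib DTP and 17.03, 21.2 and 64.9 CPM in the combination (percentile 78.0). ESRRA, a regulator of mitochondrial genes, had 21.9, 31.5 and 18.7 CPM in DMSO, 22.8, 48.7 and 22.4 CPM in osimertinib DTP and 26.8, 33.4 and 40.6 CPM in the combination (percentile 78.0). These ranges overlapped between the groups. NR2F2 (COUP-TFII) had 27.4, 21.2 and 22.02 CPM in DMSO, 27.1, 25.05 and 23.2 CPM in osimertinib DTP and 35.2, 23.3 and 54.5 CPM in the combination (percentile 76.3). ESR2, estrogen receptor β, had 23.1, 36.04 and 23.1 CPM in DMSO, 21.03, 33.4 and 19.2 CPM in osimertinib DTP and 31.2, 30.8 and 22.8 CPM in the combination (percentile 72.6), in a region where the input held 47 reads, the most of any receptor region. NR1D2, the clock repressor REV-ERBβ, had 13.6, 19.6 and 14.2 CPM in DMSO, 10.9, 45.1 and 11.7 CPM in osimertinib DTP and 22.8, 29.9 and 55.1 CPM in the combination (percentile 68.5). None of these 10 promoter regions differed between groups by the test described below.

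At the other end, the best promoter region of NR2C2, a testicular receptor, had 5.17, 2.89 and 3.12 CPM in DMSO, 6.12, 7.24 and 5.24 CPM in osimertinib DTP and 6.01, 6.4 and 3.29 CPM in the combination (percentile 5.9). NR4A3 had 5.17, 7.02 and 4.22 CPM in DMSO, 3.63, 20.9 and 3.52 CPM in osimertinib DTP and 5.81, 4.19 and 22.4 CPM in the combination (percentile 18.7). VDR, the vitamin D receptor, had 9.43, 12.9 and 10.2 CPM in DMSO, 10.7, 16.98 and 14.6 CPM in osimertinib DTP and 6.01, 10.5 and 3.09 CPM in the combination (percentile 25.9), with combination replicate 3 the lowest library. PPARA, a fatty acid sensor, had 10.6, 15.5 and 14.3 CPM in DMSO, 8.32, 11.7 and 10.98 CPM in osimertinib DTP and 7.31, 6.05 and 11.98 CPM in the combination (percentile 26.9). NR2F1 (COUP-TFI) had 13.5, 13.2 and 12.5 CPM in DMSO, 10.8, 12.9 and 8.16 CPM in osimertinib DTP and 10.9, 4.19 and 28.6 CPM in the combination (percentile 34.2), with the combination libraries both the lowest and the highest of the 9. The remaining 11 receptors with a promoter region had their best promoter between percentiles 36.3 and 65.3. Of the 26 best promoter regions, 3 changed against DMSO, those of RARB, THRA and NR2E3.

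**Figure D1:**
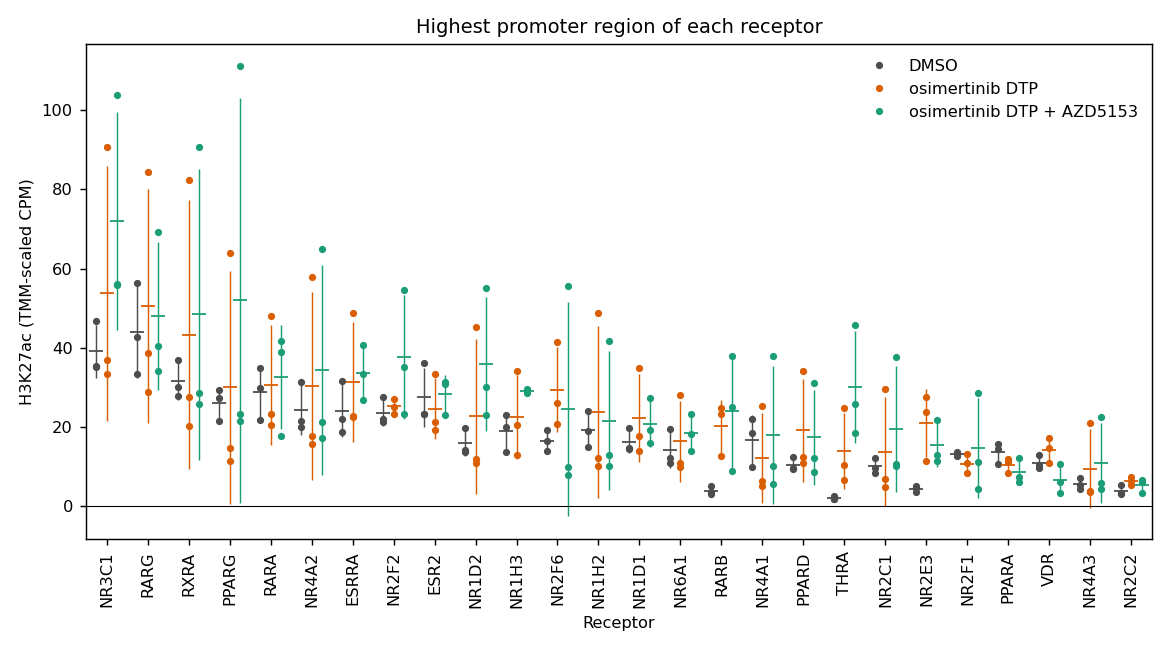
The x axis lists the 26 receptors with a promoter region by falling mean level, and the y axis gives the TMM-scaled CPM of the strongest promoter region of each; points are single libraries coloured by group, and the dash and line give the group mean and 1 SD. NR3C1 leads at a mean of 54.9 CPM, and for THRA, RARB and NR2E3 all DMSO points lie below the points of the other groups.

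The first comparison, osimertinib DTP against DMSO, asks how acetylation at receptor genes differs after 24 days in osimertinib. Of the 222 receptor regions 20 were higher and 7 lower at an adjusted p under 0.05 (edgeR quasi-likelihood test, adjusted over all regions). That is 9.01% higher, where 5.58% of all 157919 tested regions were higher, and 3.15% lower, where 5.13% of all regions were. Receptor regions could come only from the 67387 annotated regions, so these shares have unlike bases. The shares by position given below are of annotated regions alone. The 20 higher regions belonged to 7 receptors, with 6 for RARB, 5 for NR6A1, 4 for THRB, 2 for PPARA and 1 each for NR2E3, RXRA and THRA. The 7 lower regions belonged to 4, with 4 for RARG and 1 each for ESRRB, NR0B1 and RORA. By position, 15 of the higher and 3 of the lower regions were distal, 13.2% and 2.63% of the distal receptor regions against 9.79% and 10.8% of all annotated distal regions. Among promoter regions 5 were higher and 2 lower, 6.1% and 2.44% against 2.78% and 1.85% of all annotated promoter regions. The median log2 fold change over the receptor regions was 0.20, against 0.15 over all regions. In all 27 called regions the groups did not overlap. Over all regions this held for 99.7% of the higher and 100% of the lower calls. Over called and uncalled regions together, 45 of 222 receptor regions were higher without overlap and 35 lower, where 20.2% and 18.9% of all regions were.

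These calls rested on 3 libraries a group. All 27 were also called by DESeq2, but none was called in every fit that left out 1 of the 9 libraries. The higher count of 20 became 7, 0 and 0 without DMSO replicate 1, 2 or 3, and 13, 4 and 4 without osimertinib DTP replicate 1, 2 or 3. The lower count of 7 became 3, 0 and 1, and 2, 2 and 1. The share of all regions called was not computed for these fits. A loss of calls over all regions therefore cannot be told from a loss at receptor regions. Without combination replicate 3, which enters through the shared estimate of spread, 39 were higher and 18 lower, where 14.2% and 12.7% of all regions were. With the replicate number as a block, 16 of the 20 and 5 of the 7 were called.

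Among the called regions RARB had the largest rises. In the promoter region chr3:25428499-25429000, downstream of the inner start shown above, the levels were 0.544, 0.413 and 0.402 CPM in DMSO, 0.86, 6.4 and 7.65 CPM in osimertinib DTP and 4.61, 15.1 and 3.29 CPM in the combination. The DMSO libraries held 6, 4 and 4 reads there, and osimertinib DTP replicate 1, with 9 reads, was close to them while replicates 2 and 3 were far above. The log2 fold change, given throughout with its standard error, was 3.41 ± 0.84 (adjusted p = 0.0171), and leaving out 1 library at a time ended the call in 5 of 9 fits (adjusted p up to 0.103, without DMSO replicate 2). In an intronic region of the same gene, chr3:25509094-25509595, the levels were 0.726, 0.103 and 0.101 CPM in DMSO, 3.25, 4.73 and 4.13 CPM in osimertinib DTP and 4.21, 11.2 and 1.74 CPM in the combination, with the groups apart and a log2 fold change of 3.61 ± 0.83 (adjusted p = 0.013). Here leaving out 1 library at a time ended the call in 3 of 9 fits (adjusted p up to 0.0952, without DMSO replicate 2). No DMSO library had a deposited peak at either region.

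The other 4 called RARB regions lay upstream of the RefSeq gene, and were assigned to RARB through another transcript start in the annotation used for the deposited table. The promoter region chr3:24686437-24686938 had 3.54, 4.85 and 2.82 CPM in DMSO, 12.4, 23.2 and 24.6 CPM in osimertinib DTP and 25.05, 37.8 and 8.7 CPM in the combination. It rose by 2.42 ± 0.62 log2 units (adjusted p = 0.0201), and leaving out 1 library at a time ended the call in 5 of 9 fits (adjusted p up to 0.127, without DMSO replicate 3). Its neighbour chr3:24687037-24687538 had 1.63, 2.68 and 0.805 CPM in DMSO, 7.36, 9.18 and 18.2 CPM in osimertinib DTP and 21.1, 31.8 and 4.64 CPM in the combination and a log2 fold change of 2.76 ± 0.72 (adjusted p = 0.023). The distal region chr3:24704003-24704504 had 0.726, 0.62 and 0.302 CPM in DMSO, 3.15, 3.76 and 6.75 CPM in osimertinib DTP and 5.81, 5.12 and 0.966 CPM in the combination and a log2 fold change of 3.02 ± 0.73 (adjusted p = 0.0155). All DMSO libraries were below all osimertinib DTP libraries in each. The sixth region, chr3:24704676-24705177, rose by 2.94 ± 0.82 log2 units (adjusted p = 0.0301).

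RARG moved the other way, within the gene and not at its strongest promoter regions. The flanking region chr12:53217166-53217667 had 20.7, 36.04 and 33.7 CPM in DMSO, 2.58, 4.59 and 3.42 CPM in osimertinib DTP and 3.61, 4.3 and 10.8 CPM in the combination, a log2 fold change of -3.09 ± 0.61 with the smallest adjusted p of any receptor region in this comparison (0.00632), and leaving out 1 library at a time ended the call in 1 of 9 fits (adjusted p up to 0.0578, without DMSO replicate 2). The next, chr12:53217743-53218244, had 28.6, 44.1 and 43.04 CPM in DMSO, 6.69, 6.4 and 6.44 CPM in osimertinib DTP and 4.01, 3.61 and 7.92 CPM in the combination and fell by 2.56 ± 0.55 log2 units (adjusted p = 0.00869), and leaving out 1 library at a time ended the call in 3 of 9 fits (adjusted p up to 0.0707, without DMSO replicate 2). All osimertinib DTP libraries were below all DMSO libraries in both. The promoter region chr12:53215615-53216116 had 8.62, 11.2 and 19.6 CPM in DMSO, 1.34, 1.25 and 2.92 CPM in osimertinib DTP and 1.6, 1.28 and 6.38 CPM in the combination and a log2 fold change of -2.82 ± 0.69 (adjusted p = 0.0171). Deposited peaks covered these 3 regions in all 3 DMSO libraries, and in osimertinib DTP only chr12:53217743-53218244, in replicates 1 and 2. The 4 lower RARG regions form 1 block ending at 53219808. In the promoter region chr12:53221251-53221752, less than 2 kb away, the log2 fold change was 0.20 ± 0.52 (adjusted p = 0.868). In chr12:53231716-53232217, which overlaps the window shown above, the levels were 15.9, 35.7 and 24.1 CPM in DMSO, 14.8, 83.8 and 27.8 CPM in osimertinib DTP and 14.9, 31.5 and 65.5 CPM in the combination and the log2 fold change was 0.74 ± 0.66 (adjusted p = 0.538), with overlapping groups.

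The thyroid hormone receptors rose at single regions. THRA, receptor α, has an intragenic promoter region at chr17:40071635-40072136 with 1.63, 2.48 and 1.71 CPM in DMSO, 6.6, 24.8 and 10.2 CPM in osimertinib DTP and 18.3, 25.8 and 45.8 CPM in the combination. It rose by 2.82 ± 0.64 log2 units (adjusted p = 0.012), the groups did not overlap, and leaving out 1 library at a time ended the call in 4 of 9 fits (adjusted p up to 0.0807, without DMSO replicate 3). THRB, receptor β, had 4 of 14 regions higher, with log2 fold changes of 2.30 to 2.6. At chr3:24146170-24146671 it had 6.62, 9.81 and 5.33 CPM in DMSO, 31.9, 41.6 and 33.6 CPM in osimertinib DTP and 50.8, 58.99 and 12.2 CPM in the combination, which rose by 2.30 ± 0.60 log2 units (adjusted p = 0.0218). With the replicate number as a block 2 of the 4 THRB calls were lost (adjusted p = 0.0578 and 0.0539). Of 24 RXRA regions 1 was higher, chr9:134435403-134435904, by 2.76 ± 0.79 log2 units (adjusted p = 0.0333). RARA (15 regions) and VDR (3 regions) had none in either direction. Over the 83 regions of the retinoid, thyroid hormone and vitamin D receptors, 12 were higher and 4 lower, with a median log2 fold change of 0.54.

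Among the lipid sensors, PPARA had 2 adjoining higher distal regions. At chr22:46187288-46187789 the levels were 1.9, 1.55 and 1.41 CPM in DMSO, 8.7, 12.9 and 15.1 CPM in osimertinib DTP and 4.21, 2.09 and 1.35 CPM in the combination. The osimertinib DTP libraries were all above the DMSO libraries, with a log2 fold change of 2.91 ± 0.59 (adjusted p = 0.00733), and leaving out 1 library at a time ended the call in 2 of 9 fits (adjusted p up to 0.0659, without DMSO replicate 2). At chr22:46188130-46188631 the levels were 0.998, 1.34 and 0.905 CPM in DMSO, 5.26, 7.65 and 9.37 CPM in osimertinib DTP and 3.21, 2.91 and 0.966 CPM in the combination and the log2 fold change was 2.76 ± 0.61 (adjusted p = 0.0104), and leaving out 1 library at a time ended the call in 3 of 9 fits (adjusted p up to 0.079, without DMSO replicate 3). No region of PPARD, PPARG or the oxysterol receptors NR1H2 and NR1H3 was called, so 2 of 48 lipid sensor regions were higher and 0 lower.

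NR6A1, germ cell nuclear factor, had 5 of its 13 regions higher, all distal. At chr9:124734714-124735215 the levels were 2.27, 2.07 and 2.01 CPM in DMSO, 7.36, 17.8 and 16.9 CPM in osimertinib DTP and 7.11, 14.2 and 4.45 CPM in the combination, a log2 fold change of 2.72 ± 0.61 (adjusted p = 0.0112), and leaving out 1 library at a time ended the call in 2 of 9 fits (adjusted p up to 0.085, without DMSO replicate 2). The other 4 rose by 2.16 to 2.25 log2 units, and with the replicate number as a block 2 of these were not called (adjusted p = 0.0575 and 0.0532). The median over the 14 NR5A and NR6A regions was 1.74. The NR2E3 promoter region chr15:71791987-71792488, named for the photoreceptor orphan receptor but outside its RefSeq bounds, had 4.35, 3.51 and 4.93 CPM in DMSO, 11.2, 23.8 and 27.6 CPM in osimertinib DTP and 12.7, 21.6 and 11.4 CPM in the combination and rose by 2.29 ± 0.57 log2 units (adjusted p = 0.0174).

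The clock-linked receptors RORA, NR1D1 and NR1D2 had 1 called region. RORA fell by 2.57 ± 0.78 log2 units at chr15:60519096-60519597 (adjusted p = 0.0431), with 2.9, 4.96 and 6.54 CPM in DMSO, 1.24, 0.278 and 0.806 CPM in osimertinib DTP and 1.1, 0.465 and 0 CPM in the combination; its 3 regions also overlap the antisense gene RORA-AS1. Over their 12 regions 0 were higher and 1 lower, with a median log2 fold change of -1. The single ESRRB region fell by 2.54 ± 0.76 log2 units (adjusted p = 0.0409), and 1 of 5 NR0B1 regions fell by 2.54 ± 0.75 log2 units (adjusted p = 0.039). With the replicate block the RORA and NR0B1 calls were lost (adjusted p = 0.0530 and 0.0871). No region of the steroid receptors ESR1, ESR2 and NR3C1 (19 in all) or of NR4A1, NR4A2 and NR4A3 (11 in all) was called.

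**Figure D2:**
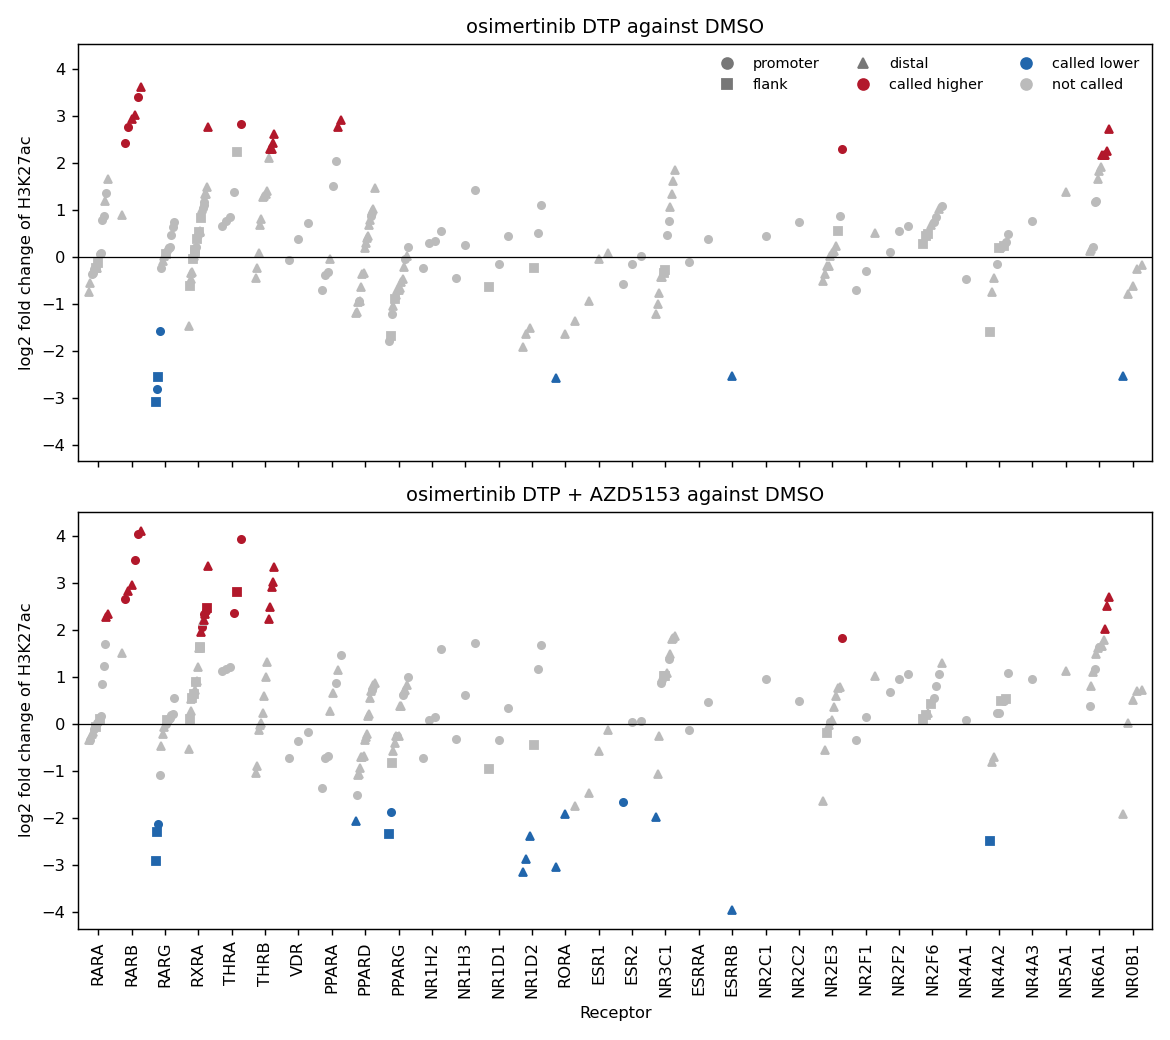
Each point is 1 of the 222 receptor regions, placed by receptor (x axis) and by its log2 fold change against DMSO (y axis), with osimertinib DTP in the upper panel and the combination in the lower; shape gives the class and colour the call. The RARB, THRB and NR6A1 points lie mostly above 0 in both panels, and all RORA points lie below 0.

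The second comparison sets the combination, 3 days of AZD5153 after 21 days of osimertinib, against osimertinib DTP, 24 days of osimertinib. If osimertinib was stopped at 21 days, AZD5153 and the withdrawal of osimertinib cannot be told apart. No receptor region was called in either direction (0% of all regions higher and 0% lower), by edgeR or by DESeq2, although 16 of 222 had an unadjusted p under 0.05. The median log2 fold change was 0.19 over the receptor regions and 0.06 over all regions. Without combination replicate 3 there were still 0 receptor calls, where 0.0637% of all regions were higher and 0.0587% lower. With weights for library quality, 10 regions were higher and 5 lower, where 1.88% and 1.79% of all regions were. The groups did not overlap in 6 receptor regions that were higher and 10 that were lower, none of them called by the unweighted edgeR fit, where 2.83% and 5.4% of all regions did not overlap.

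The smallest unadjusted p belonged to PPARA. At chr22:46187288-46187789, a region that rose in osimertinib DTP, the combination libraries had 4.21, 2.09 and 1.35 CPM, all below the osimertinib DTP libraries and, in replicate 3, below the DMSO libraries. The log2 fold change was -2.23 ± 0.58 (unadjusted p = 0.00112, adjusted p = 0.986), and -1.95 without combination replicate 3 (adjusted p = 0.0783). Its neighbour had -1.62 ± 0.58 (unadjusted p = 0.0122). RXRA, at the flanking region chr9:134318178-134318679, had 5.62, 2.48 and 1.61 CPM in DMSO, 4.59, 9.18 and 3.63 CPM in osimertinib DTP and 16.2, 14.8 and 23.2 CPM in the combination, all 3 combination libraries above all others, with a log2 fold change of 1.64 ± 0.60 against osimertinib DTP (unadjusted p = 0.0137). NR3C1 had 2 distal and 2 flanking regions among the 16. Of these the smallest p was at chr5:143395652-143396153, with 8.25, 8.16 and 6.64 CPM in DMSO, 6.31, 1.53 and 5.64 CPM in osimertinib DTP and 23.9, 17.1 and 4.06 CPM in the combination, high in combination replicates 1 and 2 and not in replicate 3. For the RARB promoter region chr3:25428499-25429000 the log2 fold change was 0.64 ± 0.71, and for RARG at chr12:53217166-53217667 it was 0.81 ± 0.58. These errors are wide, so a further change of RARB or RARG in the combination was not detectable at this replication.

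In the comparison of the combination with DMSO, 28 receptor regions were higher and 15 lower, that is 12.6% and 6.76%, where 9.05% and 9.01% of all regions were. The higher regions were 17 distal, 9 promoter and 2 flanking, and belonged to RXRA (8), RARB (6), THRB (5), NR6A1 and THRA (3 each), RARA (2) and NR2E3 (1). The lower regions were 8 distal, 3 promoter and 4 flanking, and belonged to NR1D2 and RARG (3 each), PPARG and RORA (2 each), and ESR2, ESRRB, NR3C1, NR4A2 and PPARD (1 each). Of the distal receptor regions 14.9% were higher and 7.02% lower, against 14.3% and 16.1% of all annotated distal regions. For promoter regions these shares were 11% and 3.66%, against 5.32% and 3.18%. For flanking regions they were 7.69% and 15.4%, against 10.6% and 12.7%. The median log2 fold change over the receptor regions was 0.50 against 0.23 over all regions. It was 0.12 without combination replicate 3, where that of all regions was -0.11. Of the regions called in osimertinib DTP, 16 of 20 higher and 5 of 7 lower were called here too, with the same DMSO libraries. The counts without DMSO replicate 1, 2 or 3 were 14, 7 and 5 higher and 9, 3 and 4 lower. Without combination replicate 1 there were 19 and 6, and without combination replicate 3 there were 50 and 25, where 18.4% and 17.3% of all regions were. For the fits without a DMSO replicate or combination replicate 1 the share of all regions was not computed. In every fit that left out 1 library, 5 of the higher and 3 of the lower regions kept their call. The groups did not overlap in 23 of the 28 higher and all 15 lower regions. Over all regions this held for 78% of the higher and 99.9% of the lower calls. Called or not, 43 receptor regions were higher without overlap and 28 lower, where 14.4% and 19% of all regions were. With the replicate number as a block, 23 of the 28 and 13 of the 15 were called. The calls lost were 3 of RXRA (adjusted p = 0.0519, 0.0744 and 0.0701), 1 each of RARB (0.0510) and RARA (0.0824), and on the lower side 1 each of RORA (0.0705) and NR3C1 (0.0580).

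THRA led this comparison. Its intragenic promoter region at chr17:40071635-40072136, whose levels are given above, was higher in the combination by 3.94 ± 0.67 log2 units (adjusted p = 0.00183). Its combination libraries had 18.3, 25.8 and 45.8 CPM, all above the 3 DMSO libraries, and without replicate 3 the log2 fold change was 3.50. The RARB promoter region chr3:25428499-25429000 was higher by 4.04 ± 0.85 log2 units (adjusted p = 0.00493) and the RARB intronic region chr3:25509094-25509595 by 4.12 ± 0.84 log2 units (adjusted p = 0.00431). Combination replicate 2 was the highest of the 9 libraries at both. The upstream RARB promoter regions were higher by 3.49 ± 0.74 and 2.67 ± 0.62 log2 units; the second lost its call without DMSO replicate 3 (adjusted p = 0.0639). THRB at chr3:24156671-24157172 had 0.726, 1.14 and 1.71 CPM in DMSO, 4.3, 4.87 and 8.46 CPM in osimertinib DTP and 14.9, 17.8 and 3.67 CPM in the combination and was higher by 3.35 ± 0.68 log2 units (adjusted p = 0.00423); this region overlaps the antisense gene THRB-AS2. At chr3:24145629-24146130 THRB had 3.26, 4.03 and 3.32 CPM in DMSO, 18.4, 18.9 and 19.7 CPM in osimertinib DTP and 35.7, 39.8 and 4.45 CPM in the combination and was higher by 2.91 ± 0.68 log2 units (adjusted p = 0.00854), and leaving out 1 library at a time ended the call in 2 of 9 fits (adjusted p up to 0.0542, without DMSO replicate 3). In these RARB and THRB regions replicate 3 was the lowest of the combination libraries.

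RXRA had the most called regions, and here combination replicate 3 was the highest library in all 8. At the distal region chr9:134435403-134435904 the levels were 1.45, 0.207 and 0.704 CPM in DMSO, 7.55, 4.59 and 4.23 CPM in osimertinib DTP and 5.91, 2.09 and 17.4 CPM in the combination, with a log2 fold change of 3.37 ± 0.80 (adjusted p = 0.00935), and 2.31 without combination replicate 3. At the flanking region chr9:134318178-134318679, given above, it was 2.47 ± 0.62 (adjusted p = 0.012), and 2.24 without that replicate. The promoter regions chr9:134317368-134317869 and chr9:134378510-134379011 were higher by 2.34 ± 0.59 and 2.41 ± 0.62 log2 units. The first had 3.63, 1.65 and 1.51 CPM in DMSO, 3.25, 7.1 and 3.73 CPM in osimertinib DTP and 11.2, 8.49 and 15.1 CPM in the combination, with no overlap between the combination and DMSO. Without combination replicate 3, 7 of the 8 RXRA regions were still called and chr9:134434375-134434876 was not (adjusted p = 0.103). The strongest RXRA promoter region, chr9:134325556-134326057, was not called.

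On the lower side, RARG at chr12:53217743-53218244 was lower (log2 fold change -2.91 ± 0.56, adjusted p = 0.00303), and so was chr12:53217166-53217667 (log2 fold change -2.28 ± 0.59, adjusted p = 0.0138). NR1D2 fell at 3 adjoining distal regions. At chr3:23958077-23958578 the levels were 5.53, 4.85 and 9.35 CPM in DMSO, 2.96, 0.557 and 1.61 CPM in osimertinib DTP and 1.1, 0.465 and 0.58 CPM in the combination, a log2 fold change of -3.14 ± 0.70 (adjusted p = 0.00675). The same region had -1.91 ± 0.64 in osimertinib DTP against DMSO, where it was not called. The ESRRB region, chr14:76348068-76348569, had 3.26, 4.85 and 5.23 CPM in DMSO, 1.15, 0.139 and 0.906 CPM in osimertinib DTP and 0.501, 0.233 and 0 CPM in the combination and was lower (log2 fold change -3.95 ± 0.86, adjusted p = 0.00601); combination replicate 3 held 0 reads there. These regions of RARG, NR1D2 and ESRRB had no overlap between the combination and DMSO. Of the 12 clock-linked regions 5 were lower and 0 higher, with a median of -1.35.

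Other receptors had 1 or 2 lower regions each. The PPARG promoter region chr3:12311570-12312071 had 12.8, 24.4 and 13.98 CPM in DMSO, 4.88, 4.73 and 5.04 CPM in osimertinib DTP and 6.01, 5.82 and 1.93 CPM in the combination and a log2 fold change of -1.87 ± 0.57 (adjusted p = 0.0308). The ESR2 promoter region chr14:64336966-64337467 had -1.66 ± 0.55, an NR3C1 distal region had -1.98 ± 0.66, a PPARD distal region had -2.05 ± 0.62 and an NR4A2 flanking region had -2.49 ± 0.66. All combination libraries lay below all DMSO libraries in these 5. The single lower region does not stand for NR3C1 as a whole, whose 13 regions had a median log2 fold change of 1.03. Without combination replicate 3, 8 of the 13 NR3C1 regions were higher and 1 lower, with a median of 1.45. Of all regions 18.4% were then higher and 17.3% lower.

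**Figure D3:**
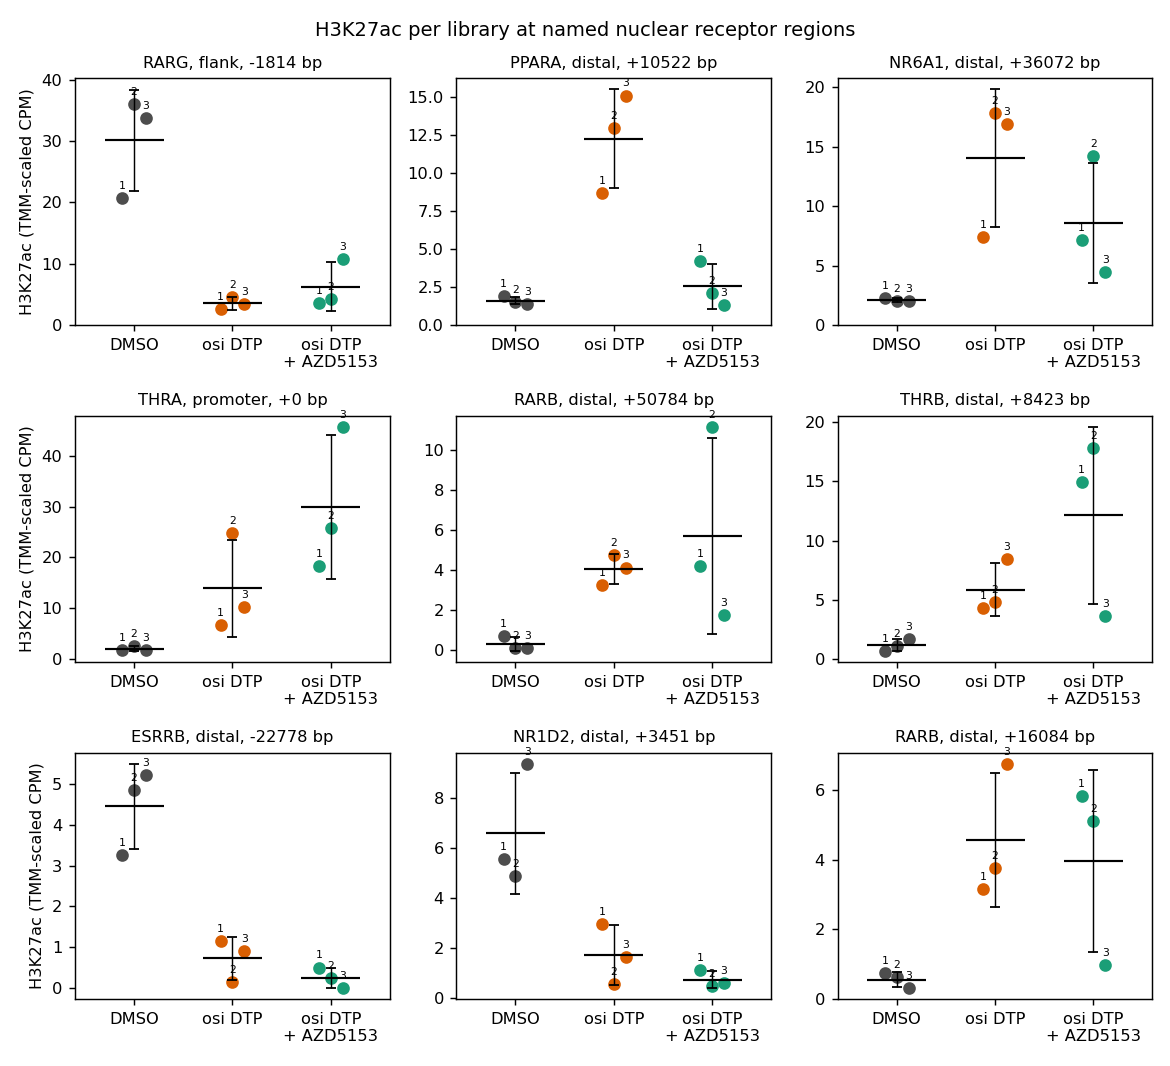
H3K27ac in TMM-scaled CPM (y axis) at 9 regions of 8 receptors (RARB has 2); each numbered point is a replicate, the horizontal line the group mean and the bar 1 SD, and titles give the distance to the annotated start. All osimertinib DTP points lie above the DMSO points for PPARA, NR6A1, THRA, RARB and THRB and below them for RARG, ESRRB and NR1D2; the combination points of PPARA, at 1.35 to 4.21 CPM, overlap those of DMSO.

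Reads were also summed for each receptor over its promoter, flanking and distal regions, so that a receptor with many regions counts once per class. All 57 receptor sums were tested, among 24117 sums of all genes. In osimertinib DTP against DMSO 1 was higher and 1 lower, where 4.57% and 5.51% of all sums were. The RARB promoter sum was 8.55, 9.09 and 6.09 CPM in DMSO, 31.4, 33.8 and 82.7 CPM in osimertinib DTP and 68.1, 106 and 17.1 CPM in the combination, a log2 fold change of 2.63 ± 0.64 (adjusted p = 0.0302), and leaving out 1 library at a time ended the call in 6 of 9 fits (adjusted p up to 0.134, without DMSO replicate 3). With the replicate block it was not called (adjusted p = 0.0836). In this sum chr3:24686437-24686938 and chr3:24687037-24687538 lie upstream of the RefSeq gene, and only chr3:25428499-25429000 lies inside it. The RARG flanking sum was 89.01, 105 and 135 CPM in DMSO, 26.4, 19.9 and 41.9 CPM in osimertinib DTP and 18.9, 16.2 and 45.2 CPM in the combination, a log2 fold change of -1.90 ± 0.45 (adjusted p = 0.0269), and leaving out 1 library at a time ended the call in 6 of 9 fits (adjusted p up to 0.115, without DMSO replicate 3). In the combination against osimertinib DTP no sum was called (0% and 0% of all sums), and 1, the VDR promoter sum, had an unadjusted p under 0.05 (-0.82 ± 0.29, adjusted p = 0.828).

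In the combination against DMSO 3 sums were higher and 4 lower, where 7.68% and 9.7% of all sums were. The THRA promoter sum was 32.02, 23.02 and 26.04 CPM in DMSO, 39.5, 65.3 and 55.7 CPM in osimertinib DTP and 64.4, 63.8 and 126 CPM in the combination, higher by 1.65 ± 0.35 log2 units (adjusted p = 0.0121). The RARB promoter sum was higher by 3.00 ± 0.65 log2 units (adjusted p = 0.0126) and the THRA flanking sum by 2.47 ± 0.72 log2 units (adjusted p = 0.0417). The THRA flanking call was lost with the replicate block (adjusted p = 0.0503) and in 7 of 9 fits that left out a library (adjusted p up to 0.156, without DMSO replicate 2), and without combination replicate 3 the log2 fold change was 1.24 (adjusted p = 0.0779). The NR1D2 distal sum was 29.7, 32.9 and 35.8 CPM in DMSO, 16.2, 6.06 and 8.59 CPM in osimertinib DTP and 6.18, 6.09 and 0.995 CPM in the combination, lower with a log2 fold change of -2.87 ± 0.62 (adjusted p = 0.0129). In this sum every combination library lay below every DMSO library. The RARG flanking sum and the ESRRB distal sum, a single region, were also lower (log2 fold changes -2.04 ± 0.45 and -4.07 ± 0.91). The NR4A2 distal sum was 40.7, 57.5 and 47.7 CPM in DMSO, 24.5, 29.8 and 27.9 CPM in osimertinib DTP and 26.9, 27.3 and 22.5 CPM in the combination, lower with a log2 fold change of -0.93 ± 0.27 (adjusted p = 0.0417). It was not called with the replicate block (adjusted p = 0.0719) or in 7 of 9 fits that left out a library (adjusted p up to 0.1997, without DMSO replicate 2). The other sums lost their call in 1 fit that left out a library (ESRRB and NR1D2, without DMSO replicate 3) or in 2 (THRA promoter, RARB and RARG). Neither the NR1D2 nor the RARG promoter sum was called in any comparison.

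**Figure D4:**
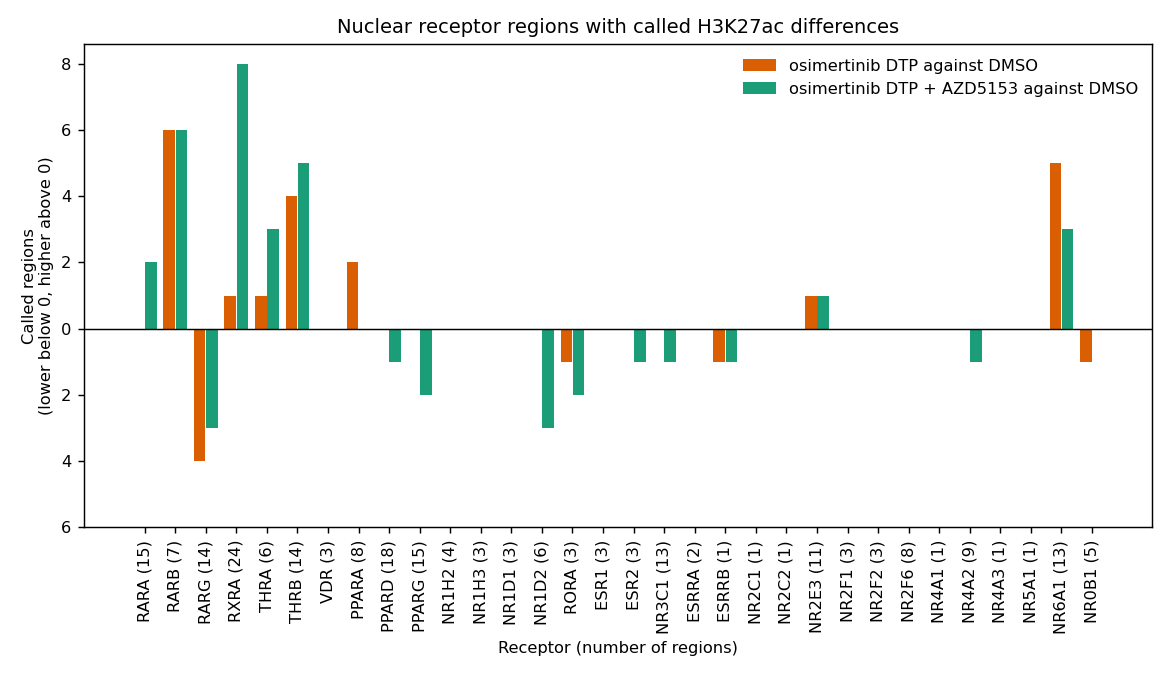
Bars give the number of regions of each receptor called higher (above 0) or lower (below 0) against DMSO in osimertinib DTP and in the combination. RARB has 6 higher in both, RXRA has 1 and 8, and NR1D2 has 0 and 3 lower.

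Genes that work with the receptors were taken from 4 lists by function. Their counts stand beside 5.58% higher and 5.13% lower of all regions in osimertinib DTP and 9.05% and 9.01% in the combination, each against DMSO, with medians of 0.15 and 0.23. Of 14 coregulators, all with regions (90 in all), 9 regions were higher and 0 lower in osimertinib DTP, and 13 and 1 in the combination, each against DMSO; the medians were 0.46 and 0.62. PPARGC1A, a coactivator of mitochondrial genes, had 0.816, 0.929 and 0.503 CPM in DMSO, 2.01, 2.92 and 1.71 CPM in osimertinib DTP and 6.71, 6.05 and 5.03 CPM in the combination at a distal region, higher in the combination by 2.96 ± 0.60 log2 units. Of 15 ligand-handling genes 11 had regions (68), of which 1 was higher and 7 lower in osimertinib DTP, and 9 and 10 in the combination. CYP26B1, a retinoic acid hydroxylase, had 19.8, 34.5 and 28.7 CPM in DMSO, 1.34, 1.25 and 1.61 CPM in osimertinib DTP and 0.802, 0.698 and 2.9 CPM in the combination at a distal region, a log2 fold change of -4.29 ± 0.66 in osimertinib DTP (adjusted p = 0.00304) that was called in all 9 fits that left out a library. ALDH1A2, which makes retinoic acid, had 1.18, 0.62 and 0.805 CPM in DMSO, 5.93, 5.71 and 4.53 CPM in osimertinib DTP and 11.7, 10.9 and 3.67 CPM in the combination at a distal region, higher in osimertinib DTP by 2.61 ± 0.62 log2 units. CYP24A1, the vitamin D hydroxylase, had 10.8, 20.9 and 13.3 CPM in DMSO, 3.06, 5.57 and 4.33 CPM in osimertinib DTP and 1.6, 2.21 and 2.71 CPM in the combination at a distal region, lower in the combination with a log2 fold change of -2.79 ± 0.57.

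Of 21 known target genes 17 had regions (133), of which 2 were higher and 23 lower in osimertinib DTP (median -0.90), and 6 and 24 in the combination (median -0.61). ABCA1, the cholesterol exporter and an oxysterol receptor target, had 11.1, 20.2 and 15.1 CPM in DMSO, 0.765, 0.278 and 0.403 CPM in osimertinib DTP and 0.701, 0.698 and 0.193 CPM in the combination at a distal region, a log2 fold change of -4.93 ± 0.68 in osimertinib DTP (adjusted p = 0.00273). Single promoter regions of the lipid synthesis genes SCD (chr10:100345789-100346290) and SREBF1 (chr17:17823864-17824365) were lower in the combination. Their log2 fold changes were -2.88 ± 0.55 and -2.69 ± 0.58. The strongest promoter region of each gene is another one, where the combination and DMSO overlapped. For SREBF1 it had 37.5, 43.3 and 37.0 CPM in DMSO and 26.8, 21.3 and 95.7 CPM in the combination. For SCD it had 20.6, 29.1 and 23.4 CPM in DMSO and 4.11, 4.54 and 24.2 CPM in the combination. ZBTB16, another of the targets, went the other way at a distal region, higher by 3.19 ± 0.70 log2 units in osimertinib DTP. Of 14 clock genes 13 had regions (93), of which 11 were higher and 5 lower in osimertinib DTP (median 0.71) and 14 and 3 in the combination (median 1.01). NFIL3, a repressor that shares sites with the clock output factors, had 1.995, 1.96 and 1.81 CPM in DMSO, 20.9, 33.7 and 28 CPM in osimertinib DTP and 48.1, 63.3 and 13.7 CPM in the combination at a distal region, higher by 3.83 ± 0.63 log2 units in osimertinib DTP (adjusted p = 0.00369). ARNTL, another of the clock genes, was lower at a distal region in osimertinib DTP, with a log2 fold change of -2.84 ± 0.59. No region of these lists was called between the combination and osimertinib DTP with all 9 libraries. Without combination replicate 3, where 14.2% and 12.7% of all regions were called in osimertinib DTP and 18.4% and 17.3% in the combination, the osimertinib DTP counts, higher then lower, were 18 and 8 for coregulators, 5 and 16 for ligand handling, 4 and 56 for targets, and 23 and 10 for clock genes. The combination counts were then 24 and 2, 7 and 15, 7 and 47, and 31 and 6.

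Markers of other cell types were read beside these results and against the same shares of all regions. No region was assigned to any of 5 blood cell or 3 liver markers. Of 5 fibroblast markers 3 had regions (14 in all; COL3A1 and DCN had none). Their summed level was 34.9 to 86.7 CPM over the DMSO libraries, 132 to 263 over osimertinib DTP and 214 to 475 over the combination. Of these 14 regions 6 were higher in osimertinib DTP and 12 in the combination against DMSO, and 0 were lower; without combination replicate 3 these were 12 and 10, and again 0 lower. The flanking region of PDGFRB, a mesenchymal receptor kinase, had 4.81, 2.48 and 2.21 CPM in DMSO, 17.2, 25.3 and 11.4 CPM in osimertinib DTP and 32.7, 30.9 and 37.9 CPM in the combination. All 8 epithelial and lung adenocarcinoma markers had regions (79), with 4 higher and 6 lower in osimertinib DTP and 8 and 12 in the combination, and summed levels of 931 to 1436, 896 to 1527 and 963 to 1485 CPM. The fibroblast marker regions thus moved in the same groups as RARB, THRA, THRB and NR6A1, and their part in the receptor results was not tested.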

How the data were processed

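Per the file headers and the labels, the authors deposited raw read counts over regions of 502 bp on hg38 for 9 H3K27ac libraries and 1 input, an annotated subset of that table, and 1 peak list per library, whose fold enrichment is a ratio and whose p and q are −log10 values as the deposited lists give them. The submitters' processing notes name BWA 0.7.17, MACS2 2.2.6, featureCounts 2.0.0 and ChIPseeker 1.29.1, without roles or settings. Of the peak lists only positions were used, for overlap with a region by at least 1 bp.

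The deposited counts of all 169637 regions were filtered with filterByExpr (minimum count 10), scaled by TMM and fitted in 1 edgeR 4.0.16 quasi-likelihood model with a mean per group (R 4.3.3, limma 3.58.1); 157919 regions were tested, with Benjamini-Hochberg adjustment over all of them and a threshold of 0.05. Counts summed per gene symbol and class were fitted the same way. Only receptor rows are printed, and a few genes are not reported here and enter no receptor or list count. The test was checked on simulated data. The alternatives tried were no filter, a replicate block, DESeq2 1.42.0, a loess offset (span 0.3), library size without TMM, counts corrected for the 1152 reads that distinct positions allow in a region (the highest receptor count was 699), library quality weights (limma), promoters of up to 3 kb, and leaving out each library.

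Same-numbered libraries of osimertinib DTP and DMSO deviated together from their group means (Pearson 0.334, 0.355 and 0.324, on log2 CPM with a pseudocount of 2), so the replicate block is given beside results it changed.

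The members and lists (coregulators, ligand handling, targets, clock genes, and epithelial, blood, fibroblast and liver markers) were chosen with earlier results of these data known. By rule, the strongest promoter region of each receptor was named (10 highest and 5 lowest in full). So were, per comparison, the up to 10 called regions with the smallest adjusted p and no overlap between groups. Called sums and the receptor with the most called regions were named too. The rule also gave up to 4 called regions without overlap per list and comparison, of which only some are named here. Other called regions were named after their values were seen. RefSeq promoter windows and gene bounds are of GRCh38.p14. The work in Python 3.11.15 used pandas 2.3.3 and matplotlib 3.10.9. The peak threshold and counting options are not given in the sources used here.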

Additional observations from a re-analysis of the deposited data

How the results depend on the processing

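The 10 receptor regions named by adjusted p in each comparison with DMSO kept their sign under all alternatives run. They were chosen from these same libraries as called and without overlap between the groups. A kept sign was therefore largely set by that choice and is not independent evidence. The fits that changed a setting also reuse the same libraries. In osimertinib DTP against DMSO these regions kept their call in all 70 fits that changed a setting and in 59 of 90 that left out a library; in the combination against DMSO these were 70 of 70 and 87 of 90. Counts moved more. For osimertinib DTP, the 20 higher and 7 lower regions became 13 and 4 without TMM and 41 and 21 with library quality weights (16.9% and 15% of all regions), and DESeq2 gave 13 lower. For the combination against osimertinib DTP, only the weights gave calls, 10 higher and 5 lower. For the combination against DMSO, the 28 higher and 15 lower became 68 and 33 with the weights (23.8% and 24.9% of all regions). Leaving out 1 library at a time gave 0 to 39 higher and 0 to 18 lower in osimertinib DTP, and 5 to 50 and 3 to 25 in the combination against DMSO. For the sums, osimertinib DTP had 1 higher and 1 lower, against 5 and 4 by DESeq2, 2 higher without TMM, 0 lower with promoters of up to 3 kb, and 0 to 9 and 0 to 7 when a library was left out. The combination against DMSO had 3 higher and 4 lower sums, against 5 higher by DESeq2, and 0 to 7 and 0 to 6 when a library was left out. Among these alternatives, shares of all regions were computed only for the quality weights and without combination replicate 3. The other counts, and those of the sums, cannot be set against all features here. The cause of these shifts was not tested.

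With the replicate number as a block, 16 higher and 6 lower regions were called in osimertinib DTP against DMSO, 23 and 14 in the combination against DMSO, and 0 receptor sums higher in osimertinib DTP against DMSO, where the RARB promoter sum was lost. For the combination the same-numbered values were mixed (Pearson 0.243, 0.026 and -0.24 with osimertinib DTP, and -0.018, 0.553 and 0.362 with DMSO). Libraries of unlike number were not compared. None of these values, nor those of osimertinib DTP with DMSO, therefore settles whether the numbers mark pairs. Scaling moved the median of all regions: in the combination against DMSO it was 0.23 with TMM, -0.02 without it, 0.27 with DESeq2 and -0.11 without combination replicate 3, so log2 fold changes of that size are not read as changes. Regions of RARB and ESRRB held under 10 reads in several libraries, so their fold changes rest on few counts. Other named regions, among them regions of RXRA, THRB, NR1D2 and RORA, also had very low levels in some libraries. The same limit holds for their fold changes.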
